A study of Mus musculus with 10 samples.

Results

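HEB binding was compared between mouse embryonic stem cells (ESCs) and endoderm derived from them, by chromatin immunoprecipitation followed by sequencing (ChIP-seq). The members were all regions of the 2 HEB lists made without the inhibitor SB431542, 17222 in ESCs and 18981 in endoderm. They made up 36203 of the 78263 regions in the 6 ChIP lists of the study, which also hold SMAD2/3 in both states and HEB after SB431542 in both. A region counted as present in both states when it shared at least 1 bp with a region of the other list.

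The cells of every group were of the CGR8 mouse ESC line at passages 18 to 25, with no genetic change named in the labels. ESCs grew on gelatin without feeder cells in serum medium with LIF, the cytokine that maintains mouse ESCs. Endoderm was made in serum-free medium by adding Activin A, a ligand that signals through SMAD2 and SMAD3, at 100 ng/ml from day 2. Chromatin was taken on day 4, and the share of cells that had become endoderm is not given in the labels. For the groups with SB431542, a blocker of the activin and Nodal type I receptors, 10 µM was used for 24 hours in ESCs and 48 hours during differentiation, as the labels can be read. One antibody lot against HEB served all HEB libraries, and an input library without antibody was sequenced for each cell condition. Each group had 1 ChIP library, so no spread between replicates could be measured, no test across samples was made and every difference below is a difference between libraries.

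HEB, encoded by Tcf12, is an E protein, a class of basic helix-loop-helix transcription factors. E proteins bind DNA as dimers with one another or with tissue-specific partners, at the E-box, a short motif written CANNTG. Id proteins dimerize with E proteins and keep them off DNA. In early embryos E proteins are known partners of Nodal signalling in the formation of mesoderm and endoderm.

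The values of a region are the authors' own. ChIP height is the height of its peak, and tag enrichment is the authors' measure of ChIP tags over input tags in it. At some regions it is below the quotient of the listed counts. A Gata6 region of endoderm, with 311 ChIP tags and 5 input tags, has a value of 33.9. No scaling of height between lists is stated, so heights were ranked within each list and given as percentiles, with 100 for the highest. Regions within 1 kb of the 5′ end of the gene the authors assigned are called promoter-proximal. Regions further inside a gene or at its far end are called gene body, and the others have no gene. No exon, intron or UTR annotation of this build was used. Positions are in build mm9 as deposited. The lists held 4810688 ChIP tags in 11010.6 kb for ESCs and 5051930 tags in 11101.6 kb for endoderm, with median input tags per region of 23 and 15. Both lists began at a height of 25.0, and 27.3% of ESC regions and 24.6% of endoderm regions lay under 30, so a region found in 1 state alone may lie just below that limit in the other. Fewer cells bound at a place and less HEB per cell cannot be told apart in such bulk chromatin.

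Each of the 4 marker genes had HEB regions in the state it marks and none in the other. Zfp42 and Dppa3, genes of naive ESCs, had 1 region each in ESCs and none in endoderm. The Zfp42 region lay over the 5′ end (chromosome 8, 44392253 to 44392894) with a height of 54.6, and the Dppa3 region (chromosome 6, 122577532 to 122577814) had a height of 26.1, close to the lower limit of the list. Cer1, which encodes a secreted antagonist of Nodal, had 1 region in endoderm alone, over its 5′ end (chromosome 4, 82530494 to 82532746), with a height of 622, 3386 ChIP tags and 83 input tags. It ranked 26 of the 18981 endoderm regions, and the nearest ESC region was 128241 bp away. Hhex, a homeobox gene of anterior endoderm, had 2 endoderm regions, 1804 and 2457 bp from its 5′ end, with heights of 71.8 and 66.9. The files hold binding and not expression, so these genes describe HEB at the markers and do not check the cell type itself.

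The promoters of 4 genes are shown because HEB lay over their 5′ ends in 1 state or in both, with the 250 bases before the gene's start taken from the RefSeq table of build GRCm38.p6. Capitals mark E-boxes, CANNTG, a motif that reads the same on either strand. Zfp42 (chr8:43307010-43307259, minus strand) and Hoxd9 (chr2:74697513-74697762, plus strand) had HEB over the 5′ end in ESCs alone. Cer1 (chr4:82885152-82885401, minus strand) had it in endoderm alone, and Nanog (chr6:122707239-122707488, plus strand, the first of its starts) in both states.
Zfp42: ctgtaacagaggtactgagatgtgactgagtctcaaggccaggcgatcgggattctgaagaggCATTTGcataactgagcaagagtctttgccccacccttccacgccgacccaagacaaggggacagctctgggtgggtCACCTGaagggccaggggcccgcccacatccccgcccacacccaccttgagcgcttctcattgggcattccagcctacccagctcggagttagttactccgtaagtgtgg
Hoxd9: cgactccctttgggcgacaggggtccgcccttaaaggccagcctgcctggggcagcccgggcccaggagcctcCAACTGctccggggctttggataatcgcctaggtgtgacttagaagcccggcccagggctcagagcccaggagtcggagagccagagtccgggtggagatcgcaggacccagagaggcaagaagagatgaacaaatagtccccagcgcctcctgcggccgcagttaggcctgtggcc
Cer1: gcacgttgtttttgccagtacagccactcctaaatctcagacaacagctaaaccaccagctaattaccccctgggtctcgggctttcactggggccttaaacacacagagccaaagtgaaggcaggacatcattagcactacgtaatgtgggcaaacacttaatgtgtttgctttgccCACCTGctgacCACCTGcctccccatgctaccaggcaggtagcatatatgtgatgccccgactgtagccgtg
Nanog: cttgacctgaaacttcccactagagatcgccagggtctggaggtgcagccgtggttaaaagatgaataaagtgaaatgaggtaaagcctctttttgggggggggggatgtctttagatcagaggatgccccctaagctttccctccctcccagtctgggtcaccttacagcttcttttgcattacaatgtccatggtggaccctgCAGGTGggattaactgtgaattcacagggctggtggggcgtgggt

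Cer1 held 2 copies of CACCTG, beginning 72 and 61 bases before the start. Zfp42 held CATTTG at 187 and CACCTG at 110 bases, Hoxd9 CAACTG at 177 and Nanog CAGGTG at 45. An E-box is common in such windows. CANNTG stood in 66.2% of the 32851 promoters in the table, which averaged 53.2% G and C. It stood in 60.6% of 1667 promoters of genes with promoter-proximal HEB in both states, 59.5% of 1257 for ESCs alone and 61.8% of 1266 for endoderm alone, all with 60.0% to 60.7% G and C. The form CAGCTG was in 13.0% of all promoters and in 14.6%, 13.7% and 17.1% of the same 3 groups. CAGGTG, or CACCTG as it reads on the other strand, was in 17.2% of all and in 19.0%, 18.0% and 19.7%. These matches describe letters and not bound sites.

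Of the ESC regions, 5534 overlapped an endoderm region (32.1%, exact Clopper-Pearson 95% interval 31.4 to 32.8, which covers counting error only). Of the endoderm regions, 5518 overlapped an ESC region (29.1%, 28.4 to 29.7). This left 11688 regions in ESCs alone and 13463 in endoderm alone. Regions present in both states had a median height percentile of 61.5 in ESCs against 44.9 for ESC alone, and of 55.7 in endoderm against 47.8 for endoderm alone. Tag enrichment did not follow height in endoderm, where its median was 11.2 in both states and 13.2 in endoderm alone. In ESCs it was 9.25 and 8.13.

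The share in both states was larger among taller regions. It went from 21.5% in the lowest 20% of ESC regions by height (20.1 to 22.9) to 48.1% in the highest 20% (46.4 to 49.8). In endoderm it went from 23.8% (22.4 to 25.2) to 38.1% (36.5 to 39.6). Of the 100 tallest ESC regions 80% were also in endoderm, and of the 100 tallest endoderm regions 54% were also in ESCs. Promoter-proximal regions had a larger share than the others in each of the 5 height classes of both lists, from 36.9% against 16.7% in the lowest 20% of ESC regions to 71.8% against 45.2% in the highest. When each list was limited to its 5000 tallest regions, the overlap was 22.6% of either list, and with the 5000 regions of highest tag enrichment it was 17.7% of either.

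**Figure D1:**
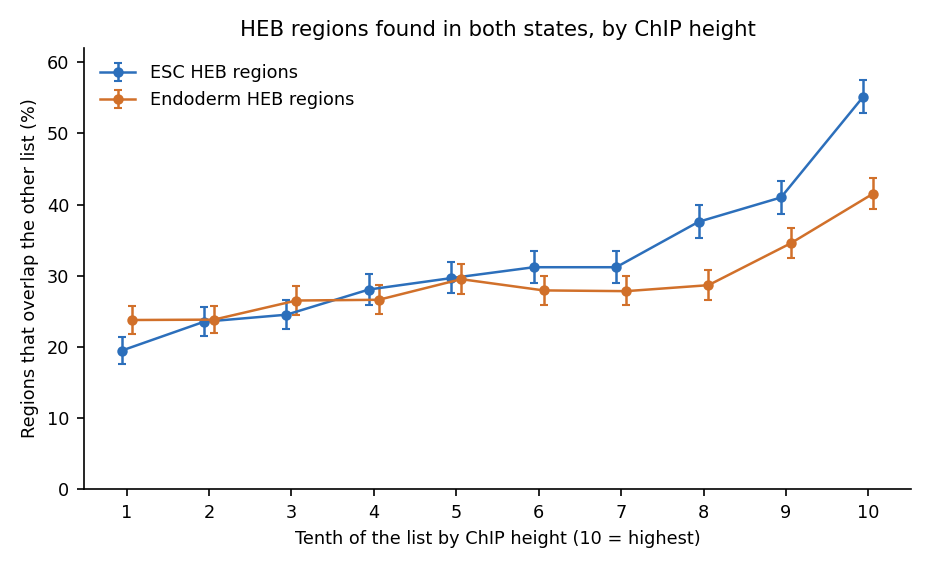
Share of HEB regions that overlapped the other list (y axis, percent) in each of 10 equal classes of the list by ChIP height (x axis, 10 for the highest), for ESC regions (blue) and endoderm regions (orange). Points are shares and bars exact 95% intervals of counting error. The share was largest in the highest class of both lists, and larger there for ESC regions than for endoderm regions.

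The overlapping regions formed 5674 pairs, and their summits, the positions of greatest height, lay close together. The distance between the 2 summits had a median of 15 bp, and in 76.4% of pairs it was at most 50 bp. For the pairs of the ESC list with its SB431542 list, the median was 10 bp and the share 87.2%. Height ranks of the pairs were related loosely, with a Spearman's rho of 0.37 over 5674 pairs, against 0.73 over 13110 pairs of ESC HEB with and without SB431542. For Endoderm HEB with and without SB431542 it was 0.36 over 4869 pairs, with a median summit distance of 15 bp and 80.0% within 50 bp. By tag enrichment in place of height, rho of the cross-state pairs was 0.61. The points of each correlation share 2 ChIP libraries and their inputs, and the values describe these libraries. Among pairs in the highest 20% of the ESC list, 44.8% were also in the highest 20% in endoderm and 8.82% in the lowest.

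**Figure D2:**
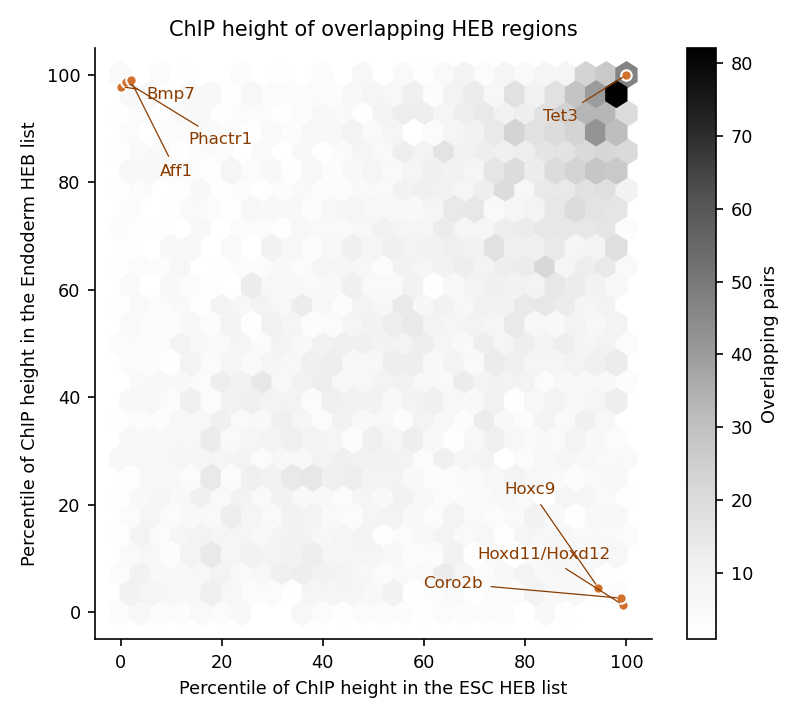
Percentile of ChIP height in the ESC list (x axis) and in the endoderm list (y axis) for the 5674 overlapping pairs, with darker cells holding more pairs. Orange points are named pairs: Tet3 was near 100 in both, Hoxd11/Hoxd12, Hoxc9 and Coro2b ranked high in ESCs and low in endoderm, and Bmp7, Phactr1 and Aff1 low in ESCs and high in endoderm.

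Some sites were tall in both states. Ordered by the lower of the 2 heights, the tallest genic pair lay over Mir715 (chromosome 17, 39979859 to 39983424), with heights of 1989 in ESCs and 1628 in endoderm. Its input heights were 345 and 172, and it was among the 8 ESC and 6 endoderm regions with an input height above 20, so its input was high as well as its ChIP. The next was in Gse1 (chromosome 8, 123051701 to 123053648), at 1481 and 1092 with input heights of 2.46 and 0.975. Tet3, which encodes an enzyme that oxidizes methylated cytosine, reached 956 and 984. Bcl2l1, the gene of the survival factor BCL-XL, reached 799 and 811. Snai1, a repressor of epithelial genes, had a pair at 499 and 448, which began 1578 bp from its 5′ end in ESCs and 1688 bp in endoderm. Ttc7b, Wbscr25 and Ust followed, and Clybl, which encodes a mitochondrial lyase, held 2 of these pairs. The lower height of these pairs was between 321 and 1628.

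Other sites were listed in both states at opposite ends of the ranks. The region at Hoxd11 and Hoxd12, homeobox genes of the posterior body axis, spanned 6194 bp in ESCs with a height of 342. The endoderm region inside it spanned 1449 bp with a height of 25.2 and had no gene assigned. Its summit lay 1786 bp from that of the ESC region. Hoxc9 stood at 128 in ESCs and 25.8 in endoderm. Coro2b, a coronin gene of the actin cytoskeleton, stood at 273 and 25.4, and Dennd2a at 99.2 and 25.6. These pairs were among the 5 with the largest excess of the ESC percentile. The 5 with the largest excess in endoderm were at Bmp7, a signalling ligand of the BMP family, with 25.0 in ESCs and 219 in endoderm, and at Phactr1 (25.1 and 274), Pcdh7 (25.1 and 224), Aff1 (25.3 and 303) and Recql5 (25.1 and 173). All of these had a low side within 1 unit of the lists' lower limit, so they stood close to being counted as present in 1 state alone.

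Location differed between the classes. Promoter-proximal regions made up 28.2% of ESC regions in both states (1562 of 5534), 12.8% of ESC alone (12.2 to 13.4) and 9.80% of endoderm alone (9.30 to 10.3). Regions with a gene lay at a median of 1544.5 bp from the 5′ end for ESC regions in both states, 12218 bp for ESC alone and 26263.5 bp for endoderm alone. Over 50 kb from the 5′ end stood 37.2% of genic endoderm-alone regions and 23.6% of genic ESC-alone regions. The promoter-proximal shares changed when both lists were cut before the classes were called, so that classes as well as regions differed. With the 5000 tallest of each list they were 16.3% for ESC regions in both states, 10.3% for ESC alone and 5.14% for endoderm alone. With the 5000 of highest tag enrichment they were 9.03%, 9.26% and 3.35% in that order. Wide regions mostly overlapped the other list, but the width was often not kept. Of 354 ESC regions over 2 kb, 246 overlapped endoderm, as did 181 of 200 such endoderm regions with ESCs. In 306 pairs with an ESC region over 2 kb, 120 endoderm partners were over 2 kb, and medians were 2653.5 and 1626 bp. In 228 pairs with an endoderm region over 2 kb, medians were 2472 bp and 2092 bp in ESCs.

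The other lists of the study, which did not define the classes, split them further. ESC-alone regions overlapped HEB of ESCs treated with SB431542 in 69.9% (69.1 to 70.7) and those in both states in 85.3% (84.3 to 86.2). Among regions in the highest 20% of the ESC list these shares were 98.0% and 98.5%. HEB of endoderm with SB431542 overlapped 5.10% of ESC-alone regions, 43.2% of ESC regions in both states and 18.0% of endoderm-alone regions. SMAD2/3 of endoderm overlapped 30.6% of endoderm-alone regions (29.8 to 31.4), 46.8% of endoderm regions in both states and 5.74% of ESC-alone regions. In the highest 20% of the endoderm list the shares were 59.1% for endoderm alone and 64.4% for both states. SMAD2/3 of ESCs overlapped 18.6% of ESC-alone regions, 22.3% of ESC regions in both states and 0.750% of endoderm-alone regions. In the highest 20% of the ESC list the order was reversed, with 54.5% for ESC alone and 42.8% for both states. Endoderm-alone regions were seldom in HEB of SB431542-treated ESCs (6.61%), except the promoter-proximal ones, of which 43.3% were. The inputs were shared within a cell condition, and the part of list length and depth in these shares was not tested.

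**Figure D3:**
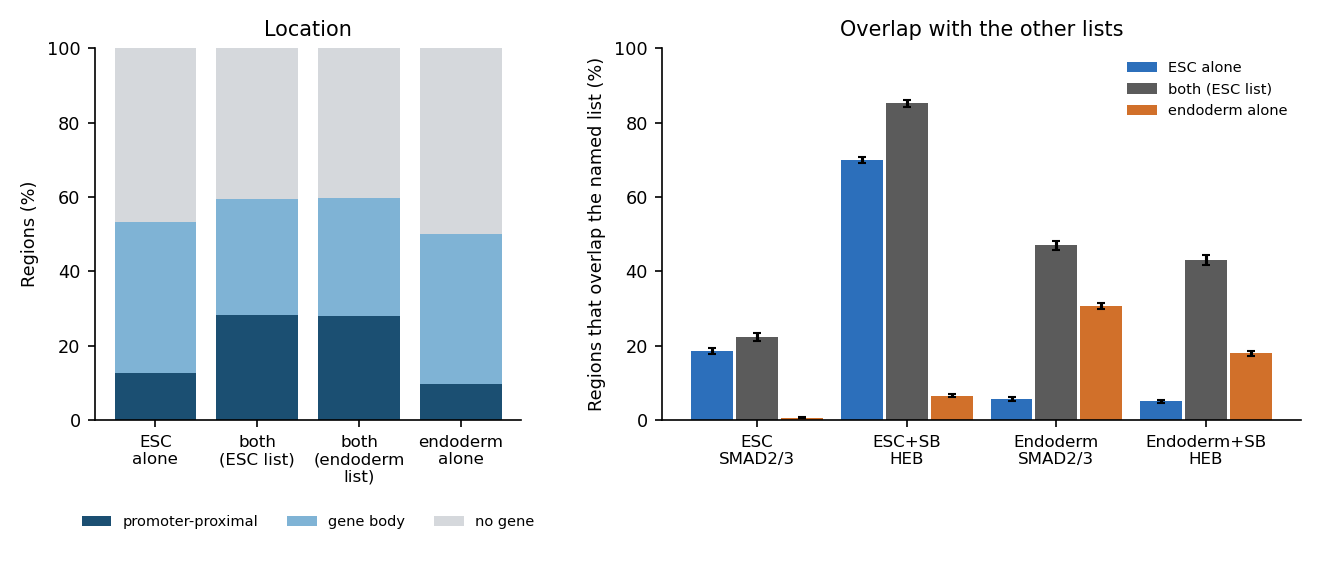
Left, share of regions (y axis, percent) that were promoter-proximal, in a gene body or without a gene, for ESC alone, both states (each list) and endoderm alone. Right, share of regions (y axis, percent) that overlapped each of the other 4 lists, with exact 95% intervals of counting error. Promoter-proximal regions were 28.2% of ESC regions in both states, and Endoderm SMAD2/3 overlapped 5.74% of ESC-alone and 30.6% of endoderm-alone regions.

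The 10 tallest genic regions of ESCs alone included 2 at Ubxn11 (chromosome 4, 133678026 to 133678987 and 133677367 to 133677875), with heights of 1188 and 524. St5 (707), Crmp1 (520), 2 regions of Sh3pxd2a (479 and 470), Rarg, a retinoic acid receptor (431), and Lrch4 (394) were among the 10. Esrrb, a nuclear receptor of naive pluripotency, reached 533 (chromosome 12, 87842439 to 87843332). All 10 regions were also listed in ESCs with SB431542, and none overlapped an endoderm list. The nearest Endoderm HEB region was 2227 bp away at Esrrb and 65461 bp away at Crmp1.

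The 10 tallest genic regions of endoderm alone began with AI661453 (chromosome 17, 47599191 to 47600272, height 1172) and Map3k7, the gene of the kinase TAK1 (818). Dlgap1 (653), 4921506M07Rik (637), Cer1 (622), Arfgap3 (558), Sh3rf1 (546), Accn1, now named Asic2, an acid-sensing ion channel gene (524), Ctnnd2 (511) and Rps6ka2, an S6 kinase gene (495), made up the rest. All 10 overlapped a SMAD2/3 region of endoderm and none a SMAD2/3 or SB431542 list of ESCs. In endoderm with SB431542, 2 of the 10 were listed, at Dlgap1 and Sh3rf1. Rps6ka2 also had ESC regions elsewhere in the gene, as described below with the genes that exchange regions.

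Genes were counted by the authors' assignment. HEB was assigned to 5502 genes in ESCs and 5677 in endoderm, with 3455 in both, 2047 in ESCs alone and 2222 in endoderm alone. As background for the lists below, 15.1% of 21900 protein-coding genes had HEB in both states, 9.00% in ESCs alone and 9.74% in endoderm alone. The median over genes of the highest percentile was 53.0 in ESCs and 52.1 in endoderm. The lists were chosen with earlier results known, and their counts are descriptions.

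Naive pluripotency genes, which are active in the preimplantation epiblast and in ESCs, were bound in ESCs alone at 11 of 20, in both states at 6 and in endoderm alone at 0. Tfcp2l1, a transcription factor of the naive network, had 5 ESC regions with a highest height of 139 (percentile 95.2) and none in endoderm, where the nearest region of the list was 144811 bp away. Prdm14, a repressor of differentiation genes, had 3 ESC regions reaching 85.2 (87.9), Dppa5a 2 reaching 48.1 (67.3) and Tcl1 2 reaching 48.0 (67.1). The tallest regions of Fgf4, Klf2, Nr0b1, Gbx2 and Dppa2 had heights of 27.2 to 34.2. The 11 became 5 with the 5000 tallest regions of each list and 6 with the upper 50%. Klf4, Klf5 and Dppa4 had no region in either state.

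Over all 20 naive genes there were 60 ESC regions, of which 9 were in both states, and 15 endoderm regions. All 9 lay at genes bound in both states. Esrrb had 17 regions in ESCs and 6 in endoderm, with 3 in both. Its tallest ESC region was absent in endoderm, and its second, at 44494 bp from the 5′ end with a height of 395, was present in both. Nanog had 1 region over its 5′ end (chromosome 6, 122657031 to 122657718) at 129 in ESCs and 75.2 in endoderm. Tdh, the gene of threonine dehydrogenase, had 4 regions in ESCs and 1 in endoderm, the shared one at 180 and 30.9. Tbx3 (140 and 116 at its highest) and Tet2 (83.5 and 61.4) completed the group, beside Nr5a2, which shared none. The heights of Tbx3 and of Tet2 were of different regions in ESCs and in endoderm.

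Other genes of pluripotency and of the epiblast differed in pattern, with 10 of 12 in both states. Of their 27 ESC regions 17 were in both states. Fgf5, a ligand of the primed epiblast, reached 85.8 in ESCs and 338 in endoderm (percentiles 88.1 and 99.3). Otx2, a homeobox factor of epiblast and anterior tissues, reached 50.1 and 162. Sall4, a zinc finger factor, reached 56.2 and 188, in different regions of the gene. By ESC percentile Zic2 (138 and 106), Pou5f1, the gene of OCT4 (115 and 96.5), and Utf1 (108 and 55.4) led the group. Foxd3 had HEB in ESCs alone (32.0), and Pou3f1 in neither.

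All 20 definitive endoderm genes had HEB in endoderm, 13 of them also in ESCs and 7 in endoderm alone. The 7 were Cer1, Frzb, a secreted Wnt antagonist (3 regions, highest 113), Hhex, Mixl1 over its 5′ end (49.1), Hnf4a (30.1), Cxcr4 (26.0) and Foxa3 (25.2). The last 3 stood low in the list, at percentiles of 25.0, 5.91 and 1.02. With the 5000 tallest regions of each list the 7 became 4. Of the 21 ESC regions of these genes 17 were in both states, and of the 39 endoderm regions 18.

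Several of the 13 genes bound in both states had different tallest regions. At Eomes, whose T-box protein is needed to form this tissue, a shared site 173 bp from the 5′ end in ESCs had heights of 107 there and 31.0 in endoderm. Another shared site, 8096 bp away in ESCs, had 37.1 in ESCs and 239 in endoderm. Gata4, a zinc finger factor of endoderm and heart, was bound over its 5′ end in both states (69.4 and 84.5), and its tallest endoderm region, 5404 bp from the 5′ end (168), was in endoderm alone. Gata6 had the same layout, with 78.9 and 62.2 over the 5′ end and an endoderm-alone region of 75.4 at 7568 bp. Prdm1, a transcriptional repressor of the germ line and endoderm, had 36.5 and 76.1 over its 5′ end and an endoderm-alone region of 149 at 14650 bp. Foxa2 and Lhx1 had regions over the 5′ end in both states, at 52.1 and 115 for Foxa2 and 111 and 132 for Lhx1. The widths were 3895 bp in ESCs and 1611 bp in endoderm at Foxa2, and 5182 and 4178 bp at Lhx1. Sox17 stood at 97.6 in ESCs and 38.4 in endoderm. Of the Eomes sites, the first lay at chromosome 9, 118387480 to 118389390 in ESCs and the other at 118395393 to 118397094 in endoderm.

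Of 25 Nodal and activin pathway genes, 15 were bound in both states, 3 in ESCs alone and 3 in endoderm alone. Those in ESCs alone were Acvr1b (58.6), Lefty2 (29.2) and Fst (28.2), and those in endoderm alone Smad2 (41.3), Acvr1c (27.8) and Bambi (25.6). An endoderm region not assigned to Fst lay 406 bp from the Fst region of ESCs. Among ligands and co-receptors, Cfc1, which encodes the Nodal co-receptor Cryptic, had a single shared region with a height of 101 in ESCs and 1258 in endoderm, where it ranked 3 of the list. Tdgf1, the gene of the co-receptor Cripto, stood at 195 and 201. Nodal had an ESC-alone region of 154 located 674 bp from its 5′ end, and a shared site at 30.6 in ESCs, where it lay over the 5′ end, and 85.6 in endoderm, where it began 927 bp from it. Among inhibitors, Lefty1 had a wide region over its 5′ end at 449 and 306. Ski, a repressor of SMAD signalling, had 7 regions in ESCs, the highest at 976, and 3 in endoderm, where the same site stood at 89.2. Among the SMADs and their partners, the highest regions were 44.4 and 138 at Smad3, and 58.1 and 101 at Foxh1, whose protein recruits SMADs to DNA. At both genes the highest region of ESCs and that of endoderm did not overlap. Inhba, Inhbb, Acvr2a and Acvr2b had none in either state.

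Of 23 mesoderm genes, 10 were bound in both states, 7 in ESCs alone and 3 in endoderm alone. Wnt5a, a non-canonical Wnt ligand, had 5 ESC-alone regions reaching 129, and Wnt3a (59.1) and T, the gene of Brachyury (52.2), had 1 each. Tal1, Twist1, Snai2 and Etv2 had heights of 25.1 to 28.5. In endoderm alone were Kdr, a VEGF receptor gene (104), Mesp2 (26.4) and Tbx6 (25.0). Neuroectoderm genes had 14 of 23 in both states, 4 in ESCs alone (Neurog1, Neurog2 and En1 among them, at 27.6 to 43.3) and 2 in endoderm alone (Sox3 among them, at 26.3). Pax3, a paired box factor of neural crest and muscle, had a shared site at 29.0 in ESCs and 635 in endoderm, where it ranked 25 and began 14734 bp from the 5′ end. Pax7 (244 and 121), Nes (183 and 76.2) and Six3 (108 and 50.9) had the highest ESC percentiles of the genes bound in both states. The Pax7 heights were of different regions, over the 5′ end in ESCs and 78839 bp from it in endoderm.

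Regulators of later development that are known targets of Polycomb repressive complex 2 (PRC2) numbered 35, with 19 bound in both states, 11 in ESCs alone and 2 in endoderm alone (Sim1 and Bmp2, at 26.3 and 26.1). The ESC-alone genes with the highest percentiles were Hoxa13 (60.6), Hoxa9 (57.1), Hoxd9 (57.0) and Hoxb13 (56.4), with heights in parentheses. Pax9 (395 and 161), Barhl1 (244 and 273) and Tfap2b (210 and 176) led in both states. Of the 69 ESC regions of this list 24 were over 2 kb wide. With both lists cut to the 5000 regions of highest tag enrichment, 18 genes counted as ESC alone in place of 11. A gene whose endoderm regions fell below the cut also counts as ESC alone there.

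The full Hox family, singled out after its values were seen, was then counted. Of 39 Hox genes 26 had HEB in ESCs alone, 11 in both states, 0 in endoderm alone and 2 in neither. ESCs had 98 regions at Hox genes that covered 161 kb, with a median width of 1458 bp and 31 over 2 kb. Endoderm had 19 regions that covered 21.8 kb, with a median width of 838 bp. Of the 19 endoderm regions 18 overlapped an ESC region, and 17 of the 98 ESC regions overlapped an endoderm region. The region counts had the same order in each cluster, with 28 and 6 regions at Hoxa, 28 and 6 at Hoxb, 24 and 3 at Hoxc, and 18 and 4 at Hoxd. Width and height did not in every cluster, as the 3 endoderm regions at Hoxc had a median width of 2342 bp and height of 64.1, against 1369.5 bp and 41.4 in ESCs. Of the 98 ESC regions 94 were also listed in ESCs with SB431542. Counting as ESC alone only genes with no endoderm region within 1 kb left 23, and the 5000 tallest regions of each list gave 24. Hoxaas3, an antisense gene in the Hoxa cluster that overlaps its neighbours, carried 8 of the ESC regions and none in endoderm.

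**Figure D4:**
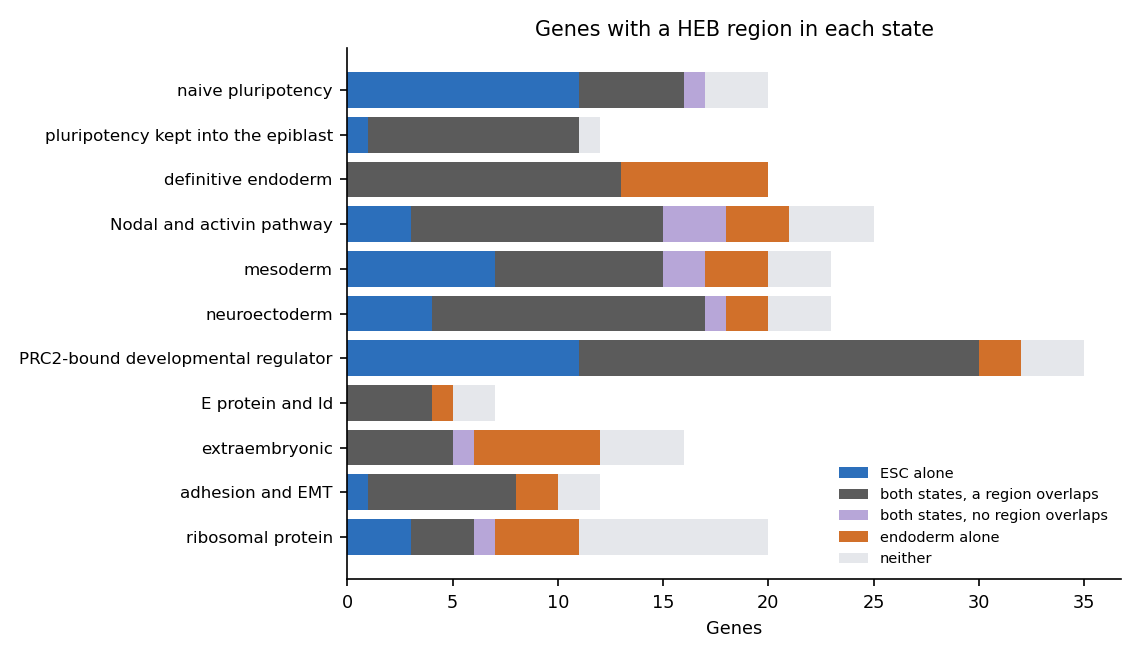
Number of genes (x axis) in each list by HEB: ESC alone, both states with at least 1 overlapping region, both states with none overlapping, endoderm alone and neither. Naive pluripotency had 11 genes in ESCs alone and 0 in endoderm alone, and definitive endoderm had 0 and 7.

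The genes of E proteins and Id factors had HEB in both states at 4 of 7. Id1, whose protein blocks E proteins, reached 259 in ESCs and 284 in endoderm, and Id3 77.3 and 33.8 over its 5′ end. Id2 reached 51.4 and 68.0, and Tcf4 36.7 and 75.0. The heights of Id1 and of Tcf4 were of different regions in ESCs and in endoderm. Id4 had HEB in endoderm alone (25.3). Tcf3 and Tcf12, the gene of HEB itself, had no region in either state. The list of extraembryonic genes, which also holds matrix and keratin genes, had 6 of 16 in both states, 0 in ESCs alone and 6 in endoderm alone. The 6 were Dab2 (40.6), Lama1 (38.7), Lamb1 (30.3), Krt18 (27.8), Afp (25.8) and Amn (25.6). Krt8, a simple epithelial keratin, stood at 60.5 and 177 in its shared region. Ttr, Sox7, Elf5 and Tfap2c had none, and the part of extraembryonic cells in the endoderm list was not tested.

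Of 12 adhesion genes 7 were bound in both states, 1 in ESCs alone and 2 in endoderm alone. Cdh2, the gene of N-cadherin, had 10 regions in endoderm, spanning 166.5 kb with heights of 25.9 to 97.4, and none in ESCs. Cdh1, the gene of E-cadherin, had 14 regions in ESCs and 9 in endoderm, with highest heights of 174 and 154. Fn1, the gene of fibronectin, had HEB in ESCs alone (119), and Epcam in endoderm alone (46.2). Zeb2, a repressor of epithelial genes, had 2 ESC and 9 endoderm regions. The ribosomal protein genes, a comparison list, had 4 of 20 in both states, 3 in ESCs alone, 4 in endoderm alone and 9 in neither, with no height above 82.7.

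Genes could also hold many regions in 1 state. Igsf21 and Msi2, which encode a synaptic adhesion protein and an RNA-binding protein of stem cells, each had 21 ESC-alone regions, beside 10 and 13 endoderm regions. Ctif had 15 ESC-alone regions, Esrrb 14 and Zmynd8 14. Auts2, a gene of neural development, had 33 endoderm regions over 1035.8 kb, of which 32 were in endoderm alone, with a median height of 48.7, and 11 ESC regions with a median of 29.5. Asic2 had 17 endoderm-alone regions, Maml3, a Notch coactivator gene, 15, and Cdh4 14. Kif26b and Slit1, singled out after their values were seen, had 13 and 12 endoderm regions and none in ESCs.

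A gene was said to swap HEB regions when it had HEB in both states and none of its regions overlapped a region of the other list. This held for 778 of 3455 genes (22.5%). Of 1383 genes with exactly 1 region in each list, 319 (23.1%) swapped 1 region for another. The share was 25.7% with 3 to 4 regions over both lists, 22.1% with 5 to 9 and 7.81% with 10 or more. In 689 swapping genes no region of the other state lay within 1 kb of their own, and in 230 the tallest region of each state was above the 50th percentile of its list. The count became 408 of 1462 genes with the upper 50% of each list and 201 of 737 with the 5000 tallest regions. With the 5000 regions of highest tag enrichment it was 267 of 622. In each of these shorter lists the share was larger than 22.5%. Cutting both lists can remove an overlapping partner and so make a gene count as a swap, and its part in the larger shares was not tested.

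The tallest regions of a swapping gene lay at a median of 21.8 kb from each other. The ESC region was nearer the 5′ end in 369 genes and the endoderm region in 408. A promoter-proximal region was present in ESCs alone in 175 genes, in endoderm alone in 147, in both in 42 and in neither in 414. The tallest ESC region was listed in ESCs with SB431542 in 74.3% of swapping genes, and the tallest endoderm region overlapped endoderm SMAD2/3 in 36.2%. These shares stand beside 69.9% and 30.6% for all regions of 1 state alone, which were not limited to the tallest of a gene. In the 319 genes that swapped 1 region for 1, where no tallest region is picked, the shares were 67.1% and 30.4%.

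Epha4, an ephrin receptor gene, had the most regions of the 10 swapping genes with the highest lower percentile. There were 8 ESC regions within 56.0 kb and 9 endoderm regions within 84.0 kb, and none overlapped, with a smallest gap of 1164 bp. Heights ran from 27.7 to 262 in ESCs and from 25.5 to 93.8 in endoderm. Rps6ka2 had 4 ESC regions, the tallest at 171 (chromosome 17, 7392736 to 7393219), and 3 endoderm regions, the tallest at 495 (7401994 to 7402957), 8775 bp apart. Asap3 had 140 and 259 at 28025 bp, and Slc12a8 had 121, promoter-proximal in ESCs, and 101 at 5988 bp. Srgap1 had 295 and 97.1 at 159444 bp, and Magi2, a membrane scaffold gene, 85.0 and 95.6 at 93320 bp. Sptlc2 (92.9 and 99.5), Svil (81.4 and 174) and Mreg (79.0 and 142) were also among the 10. All 10 ESC regions were also listed in ESCs with SB431542. Of the 10 endoderm regions 8 overlapped endoderm SMAD2/3, the exceptions being Slc12a8 and Srgap1. The 10 genes were chosen for tall regions, so these counts do not describe swapping genes in general. In the 230 swapping genes whose tallest regions were both in the upper 50% of their lists, the shares were 91.7% and 44.3%.

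**Figure D5:**
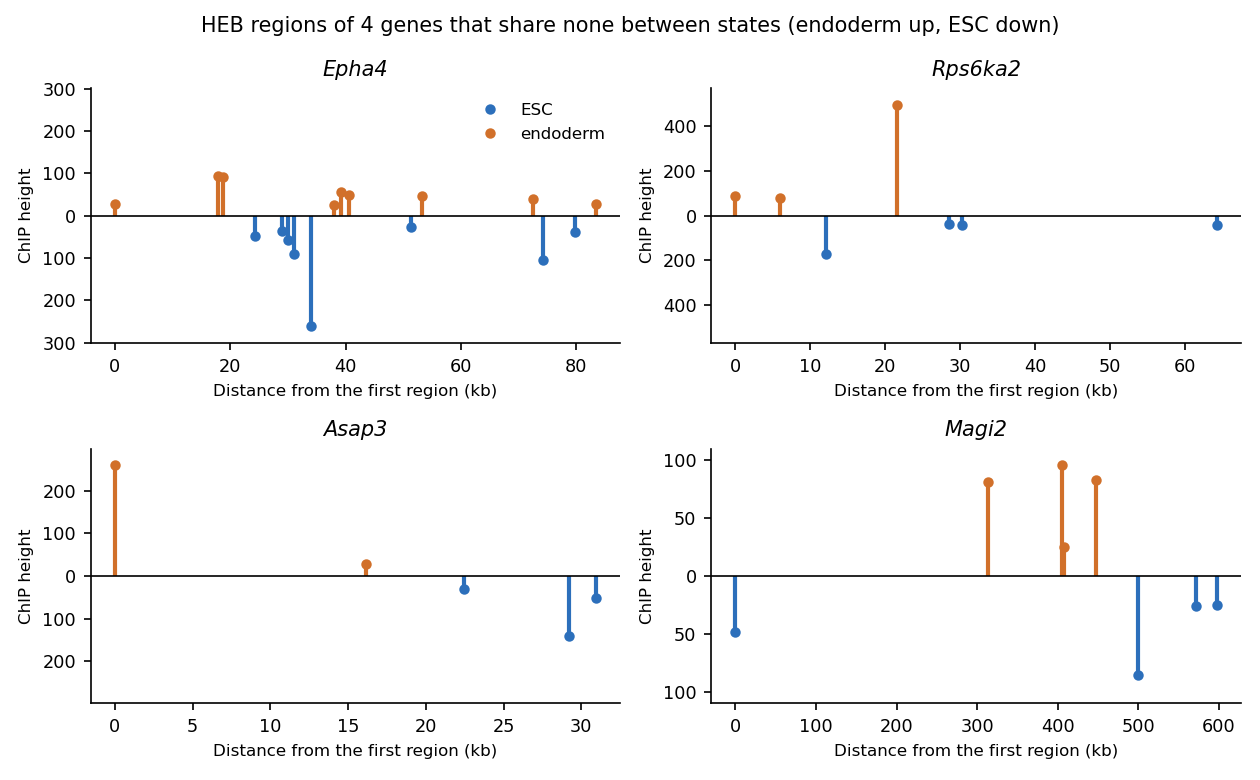
ChIP height (y axis, endoderm upward in orange and ESC downward in blue, each in its own list's units) of every HEB region at Epha4, Rps6ka2, Asap3 and Magi2, against distance from the first region of the gene in kb (x axis). No region is shared between states: Epha4 had 8 ESC and 9 endoderm regions, and the tallest of Rps6ka2 was 495 in endoderm.

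Swaps also occurred at genes of the lists. Nr5a2, an orphan nuclear receptor that can sustain Pou5f1, had 6 ESC regions, the tallest over its 5′ end at 78.7, and 1 endoderm region at 48.9, 3612 bp from it. Gdf3, a Nodal-related ligand gene, had an ESC region 1103 bp from its 5′ end at 71.6 and an endoderm region over the 5′ end at 30.2, with 775 bp between them. Smad4 had 35.3 in ESCs and 25.3 in endoderm at 37979 bp, and Ltbp1 26.1 and 37.7 at 299442 bp. Meox1 (33.2 and 45.2), Lmx1a (31.6 and 26.8) and Sparc (36.1 and 42.4) were further cases, beside Gata2 (34.8 and 32.3), whose regions were 52 bp apart. At Gata2, Sparc and Gdf3 regions of the 2 states were within 1 kb of each other.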

How the data were processed

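ChIP-seq regions of HEB in CGR8 ESCs and in endoderm were analysed, with 1 ChIP library per group. CASAVA 1.8.2 and build mm9 are named, per the submitters' processing notes. The sources used here do not give the aligner, the peak caller, its settings or the gene annotation. Per region the authors deposited whole-number counts of ChIP and input tags, and a signal (peak height, scaling not stated), per the file headers. They also deposited a tag enrichment of ChIP over input, which is not the plain quotient of the counts at every region. A deposited score headed as −log10 q-value was not used, since its values are too large for that scale. Distances to genes are the authors', per the file headers. Positions are as deposited, with their first base as 0 or 1 unstated.

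Each region was counted once, and regions sharing 1 bp or more were called overlapping, with Python 3.11.15 and pandas 2.3.3. bedtools 2.31.1 counted the same overlaps, and 100% of 5226 overlaps planted in simulated lists of the ESC HEB regions were recovered. Older gene names were matched to RefSeq names (7664 of 7730, 99.1%). Shares have exact Clopper-Pearson 95% intervals for counting error only, which take regions as independent. Genes were named by rule: the 4 markers, list members (all in a class of at most 10, otherwise the 4 of highest percentile), the 10 tallest genic regions of each class (by the lower height for both states), the 10 swaps with the highest lower percentile, the 5 pairs with the largest percentile difference in each direction and the 5 genes with most regions in 1 state alone. Further members named from larger classes of the lists, the Hox family, Kif26b and Slit1 were chosen after their values were seen. The members and lists were chosen with earlier results of these data known. Alternatives were the overlap rule, equal list lengths and ranking by tag enrichment. Some genes named by the rule are not reported here.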

Additional observations from a re-analysis of the deposited data

How the results depend on the processing

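Of 78 values of 13 results under 6 alternatives, 43 stayed within the main interval or within 1.5 times the main count. The overlap of ESC regions (32.1%) was 30.8% with centres within 500 bp, 37.7% with no region within 1 kb required for alone, 22.6% and 17.7% with the 5000 regions of highest height and of highest tag enrichment, and 26.7% with the upper 50%. That of endoderm regions (29.1%) was 27.9%, 32.5%, 22.6%, 17.7% and 24.1%. The promoter-proximal share in both states (28.2%) was 26.8% with the 1 kb rule, 16.3% and 9.03% with 5000 regions by height and enrichment and 19.5% with the upper 50%. For ESC alone (12.8%) it was 10.3%, 9.26% and 11.2% under those 3 shorter lists, and for endoderm alone (9.80%) 5.14%, 3.35% and 6.88%, with 10.4% for centres and 9.15% for 1 kb. Swapping genes (778 of 3455) numbered 201 of 737, 267 of 622 and 408 of 1462 in the 3 shorter lists in the same order. List genes in both states (108 of 213) numbered 44, 29 and 69, and those in endoderm alone (30) 19 in each. Naive pluripotency genes in ESCs alone (11) numbered 5 and 6 by height, definitive endoderm genes in endoderm alone (7) 4, and PRC2-bound regulators in ESCs alone (11) 18 by enrichment. The shorter lists hold fewer regions by construction, and both lists were cut before comparison. A region, or a gene, whose match in the other list fell below the cut then counted as alone. The cause of the other differences was not tested. The Hox count and its alternatives were added after seeing the data. No paired analysis was possible because each group had 1 ChIP library.

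Depth limits what absence means: both lists stop at a height near 25, and 27.3% and 24.6% of their regions lie under 30. The peak threshold, the input and the library cannot be told apart from the cell state in any difference between these lists.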

Other observations

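The tallest regions of both lists often had no gene assigned. Of the 100 tallest, 48 in ESCs and 60 in endoderm had none. The tallest ESC region (chromosome 2, 154251723 to 154254310, height 2861) was also in endoderm. The tallest endoderm region without a gene and absent from ESCs lay at chromosome 1, 73162830 to 73164159, with a height of 1508 and 6222 ChIP against 33 input tags, ranked 2 of its list, and the nearest ESC region was 155381 bp away. An ESC region at chromosome 9, 114477619 to 114478703, with a height of 1114, was the tallest without a gene that endoderm lacked.

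The share in both states varied by chromosome. It was highest for ESC regions on chromosome 3 (37.0%) and lowest on chromosome 15 (28.1%). For endoderm regions it was highest on chromosome 11 (35.7%) and lowest on X (21.2%). Chromosome 11 held 9.53% of ESC regions and 7.50% of endoderm regions, and chromosome 1 held 5.91% and 6.92%.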
